A study of Mus musculus with 12 samples.

Results

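Described here are the expression differences from GFP that DKO172 cells shared whichever of 3 DICER1 proteins they had received, as read from total RNA on 12 Agilent arrays of 1 colour. DKO172 is a mouse line that the labels trace to a fallopian tumor of a female animal, with no genotype given beyond the name. There were 4 groups of 3 arrays, and in each the cells had received the vector pLD-hygro-EnVM. Its insert was wild-type DICER1 (WT), the hotspot mutant D1709N, the hotspot mutant G1809R, or, in the controls, GFP. All groups shared the line, the vector and its dose of 2 µg, the hygromycin selection at 300 µg/ml for 84 h and the harvest at 108 h. The 9 DICER1 arrays were set together against the 3 GFP arrays, with the replicate number as a block. A gene or transcript counted as shared where the pooled difference passed limma's test (Benjamini-Hochberg adjusted p below 0.05) and the construct array was on the same side of the GFP array of its number in all 9 same-number pairs. Of 24184 genes and transcripts tested, 1974 were shared. The 9 pairs use only 3 GFP arrays between them, so they are not 9 independent comparisons. GFP was the only control insert, so an effect of the 3 DICER1 proteins cannot be told apart from an effect of GFP.

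The endonuclease DICER1 processes precursor hairpins of miRNAs into a duplex of a 5p and a 3p strand. Its RNase IIIa domain cuts the 3p strand and its RNase IIIb domain, which holds both hotspot residues, cuts the 5p strand, so that the mutants are known to release 3p miRNAs and to fail on 5p miRNAs. A loaded miRNA pairs through its seed with sites in mRNAs and lowers their level. Mammalian cells also sense double-stranded RNA through the helicases Ifih1 and Ddx58 and the kinase Eif2ak2, which lead to type I interferon and to the transcription of interferon-stimulated genes through IRF factors and their partners. DICER1 carries a helicase domain of the same family as Ifih1 and Ddx58.

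Between 68.1% and 82.7% of probes passed the scanner's above-background call on slide 1, which held replicate 1 of every group, and between 49.5% and 62.6% on slide 2, which held replicates 2 and 3. WT replicate 1 had a correlation of 0.975 to 0.978 with the other WT arrays, and replicate 1 of the other groups had 0.979 to 0.983 within its group. All these pairs cross the slides. Pairs of a group within slide 2 had 0.988 to 0.992. The line's labelled origin was compared with marker genes. Of 8 Muellerian epithelium markers, 4 (Krt7, Krt8, Krt18 and Ovgp1) were well above background on every array, against 6 of 8 mesenchyme markers and 6 of 6 markers of gonadal or Muellerian stroma (Amhr2, Wt1, Foxl2, Nr5a1, Gata4 and Esr1). Of 6 endothelial markers, Kdr and Pecam1 were above background on every array and Cdh5 and Emcn on none. Of 6 smooth muscle markers, 3 (Acta2, Cnn1 and Tagln) were above it on all, as were 3 of 7 leukocyte markers on the array (Cd3e, Csf1r and Itgam). The only Dicer1 probe is of the mouse gene and checks no label: its level was 1.36, 1.02 and 1.02 on the GFP arrays of replicates 1, 2 and 3, 0.53, 0.09 and 0.20 with WT, 0.93, 0.91 and 0.61 with D1709N and 1.17, 0.91 and 0.69 with G1809R, with a pooled log2 change of −0.46 ± 0.08 SE (limma adjusted p = 0.0119). That call was lost without GFP replicate 1, without GFP replicate 3 and with the WT arrays left out.

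The pooled fit called 2392 genes and transcripts (9.89% of those tested), 1190 higher and 1202 lower with DICER1. With arrays scaled to their medians in place of the 75th percentile, the median change of all genes moved from 0.04 to −0.09 and the split became 412 higher and 1466 lower, so the balance of rises and falls rests on the scaling. Of the 2392, 1974 (8.16% of all tested) had the pooled sign in all 9 pairs: 998 were higher (4.13%) and 976 lower (4.04%). In the remaining 418 the sign held in 8 pairs for 284, in 7 for 90 and in fewer for the rest. Changes were mostly small, with a median size of 0.50 on the log2 scale for shared rises and 0.45 for shared falls, and 190 rises against 58 falls reached 2-fold. The construct and GFP arrays did not overlap at all for 648 of the shared genes, and for 3.55% of all genes tested. The shared rises lay at a lower GFP level (median −1.01) than the shared falls (0.94) on the scale used for every level here, the log2 signal minus the array's 75th percentile. Over all genes tested that median was −0.53. In 11 shared rises, no GFP array was above background. Cep170, the shared gene closest to the threshold on p, changed by −0.23 with an adjusted p just under 0.05, and Zic1, just beyond it, by 0.26. With 3 controls, each GFP array weighed heavily: 778 genes were shared without GFP replicate 1, 845 without GFP replicate 2 and 625 without GFP replicate 3. The pooled calls numbered 808, 882 and 649 in those fits and 1530 without D1709N replicate 3. Without the replicate block 66 were shared, among them Tet2, Celf1, Phlpp2, Hic2, Ets1, Pdgfra, Ifnb1, Ifi27l2a and Ccl5.

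The 10 largest shared rises among named genes included the interferon-stimulated Ifi44, Isg15, Ifit1, Oasl2 and Rtp4. Of 42 tested effector genes of the OAS, IFIT and ISG15 group, whose products cut, bind or tag viral and host RNA and protein, 35 rose and all 35 were shared, against 4.92% of all genes called higher in the pooled fit. Their median log2 change was 1.94, beside 0.04 for all genes tested, and it was 2.49 with WT, 1.40 with D1709N and 1.93 with G1809R. Of 16 guanylate-binding proteins and immunity GTPases, which attack the vacuoles of intracellular pathogens, 12 rose and were shared, with a median of 1.97. The number of GTPases called was 7 without GFP replicate 1 and 7 without GFP replicate 2. Of 16 sensors of double-stranded RNA and DNA, 9 rose and were shared (median 0.92), and 6 to 10 rose with 1 array at a time left out. With the slide as the block the numbers that rose were 5 effectors, 2 GTPases and 1 sensor, and without a block 1 gene of the 3 lists, an effector, was called. Of the members tested, 3 effectors and 4 GTPases passed the filter on dim probes only through construct arrays, as 1872 of all 24184 genes did, against 137 only through GFP. Members that passed this way had to be high with DICER1, so the counts and medians of those lists describe the members tested and support no more. Without the filter 32 effectors and 9 GTPases rose. These are bulk samples, in which fewer cells of a kind cannot be told apart from less RNA per cell. The summed level of the 7 leukocyte markers was 15.1 to 22.99 with GFP, 14.2 to 21.6 with WT, 18.3 to 27.0 with D1709N and 18.3 to 26.4 with G1809R, and its part in the rise was not tested. Of 23 genes of MHC class I antigen presentation, 10 rose and 7 were shared (median 0.56), but 1 rose without GFP replicate 1, 2 without GFP replicate 2 or GFP replicate 3, and 3 to 6 without WT replicate 2 or any one mutant array. In this list 2 of the 23 passed the filter only through construct arrays, and the same limit holds. The list medians were 2.18 on slide 1 and 1.72 on slide 2 for the effectors, 1.98 on slide 1 and 1.78 on slide 2 for the GTPases and 1.09 on slide 1 and 0.84 on slide 2 for the sensors.

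Isg15, a ubiquitin-like modifier, had levels of 0.49, 3.81 and 0.71 on the GFP arrays of replicates 1, 2 and 3, 6.74, 7.10 and 4.46 with WT, 3.63, 6.36 and 3.96 with D1709N and 4.16, 6.94 and 4.38 with G1809R. Each construct array was higher than the GFP array of its number, by 2.55 to 6.24. The groups overlapped nevertheless, because GFP replicate 2 lay above D1709N replicate 1. The pooled rise was 3.63 ± 0.43 SE on the log2 scale (limma adjusted p = 0.00339), and the 3 constructs did not pass the test for a difference among them (F test adjusted p = 0.204). Replicate 2 was the highest array for Isg15 in all 4 groups, and this call, like those of Ifit1, Ifi44 and Trim30a, was lost in the fit without the block and with the slide in place of the replicate number as the block.

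Ifi27l2a, an interferon-induced mitochondrial protein, had levels of −0.65, −0.06 and −0.45 on the GFP arrays of replicates 1, 2 and 3, 2.65, 2.27 and 1.62 with WT, 1.94, 2.05 and 1.17 with D1709N and 2.29, 2.27 and 0.91 with G1809R. No construct array reached down to the GFP range. Its rise of 2.29 ± 0.21 SE (limma adjusted p = 0.00171) kept its call in all 25 alternatives. Uba7, the enzyme that activates Isg15 for conjugation, rose by 3.01 ± 0.27 SE (limma adjusted p = 0.00171), again with no overlap between the construct and GFP arrays. Further effectors rose by 3.75 (Ifi44), 3.61 (Ifit1, which binds RNA with foreign 5′ ends), 3.53 (Oasl2) and 3.33 (Rtp4). Trim30a, a ubiquitin ligase of the interferon response, rose by 3.57, and the GTPase Irgm1 by 2.31 with non-overlapping arrays.

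Upstream of these effectors, Ifnb1, the interferon beta gene, had levels of −8.27, −5.31 and −6.49 on the GFP arrays of replicates 1, 2 and 3, −1.43, −2.64 and −2.57 with WT, −4.70, −4.43 and −4.13 with D1709N and −4.12, −3.88 and −3.86 with G1809R. It was well above background on 1 of 3 GFP arrays and on 9 of 9 construct arrays, and the groups did not overlap. Its log2 change was 3.16 ± 0.51 SE (limma adjusted p = 0.00867), 4.48 with WT, 2.27 with D1709N and 2.74 with G1809R. Background on the GFP arrays limits this size: over the 25 alternatives, in all of which the call was kept, it ran from 1.25 with normexp background correction to 3.91, and it was 2.32 without GFP replicate 1. Among the sensors, Ifih1 rose by 2.68 ± 0.37 SE with no overlap (limma adjusted p = 0.00493), Ddx58 (RIG-I) by 1.20 and Eif2ak2 (PKR) by 1.29. Of 25 genes for interferons, receptors and signalling, 7 rose and 1 fell, where 4.92% and 4.97% of all genes did, and 4 rose without GFP replicate 1 or GFP replicate 2. Of these 25, 2 passed the filter on dim probes only through construct arrays, Ifnb1 among them. Such members had to be high with DICER1, so this count and the p-value of Ifnb1 support no more than a description. Irf7, the factor that amplifies interferon transcription, rose by 2.19, Usp18, which removes Isg15 and damps the receptor, by 2.61, and Irf9, the DNA-binding subunit of the interferon-activated complex, by 0.77. Ikbke, a kinase of the same pathway, fell by 0.58 on the log2 scale. The calls of Ifih1, Ddx58, Eif2ak2, Irf7, Usp18 and Irf9 were lost without the block and with the slide as the block. On slide 2 alone that of Irf9 was lost as well. The chemokine Ccl5 rose by 1.80 with non-overlapping arrays and kept its call in all 25 alternatives.

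Of the 42 effectors, 12 passed the test of WT against the mean of the mutants, all higher with WT, where 9.96% of all genes did so. By the F test among the 3 constructs 2 of the 42 passed, where 12.1% of all genes did. Ifi44 was one of the 12 that passed the test of WT against the mean of the mutants (1.86 ± 0.54 SE, adjusted p = 0.0442, limma). Oasl1 was another of these 12 (WT minus the mean of the mutants 1.71 ± 0.46 SE, adjusted p = 0.0344, limma). The call for Ifi44 was lost without any one GFP or mutant array and without WT replicate 2. That for Oasl1 was lost without GFP replicate 2, WT replicate 2, D1709N replicate 1 or 2, or any one G1809R array. The mean of the effectors was 3.64, 2.17 and 1.86 in the WT pairs of replicates 1, 2 and 3, 1.56, 1.35 and 1.47 in the D1709N pairs and 2.02, 1.88 and 1.86 in the G1809R pairs. WT replicate 1, the array with the lowest correlations within its group, gave the highest of these 9 values, and the lowest came from a D1709N pair.

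**Figure D1:**
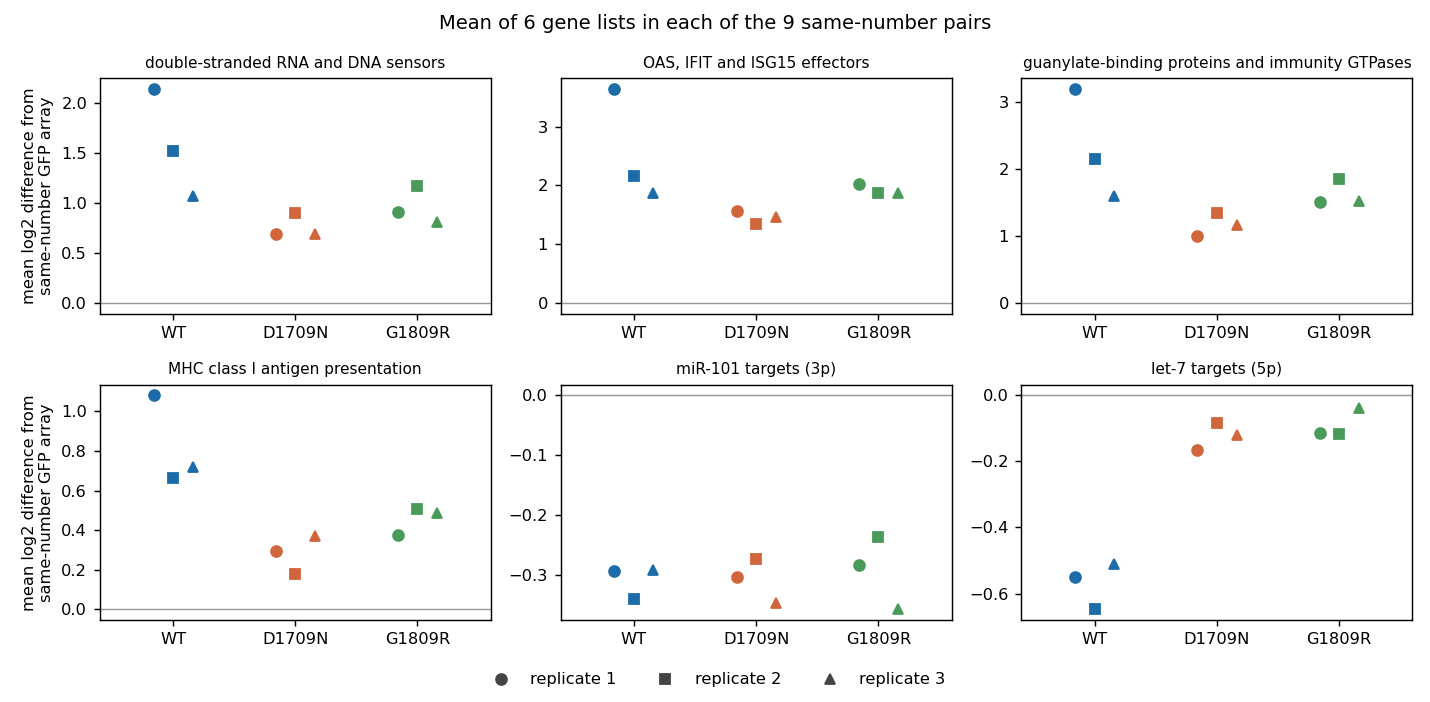
Mean log2 difference from the same-number GFP array (vertical axis, with a different scale in each panel) of 6 gene lists, for the 3 pairs of each construct; colours mark constructs and symbols mark replicate numbers. The 4 interferon-related lists lay above 0 and the miR-101 and let-7 target lists below 0 in all 9 pairs. The let-7 list was lowest in the WT pairs (−0.65 to −0.51).

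The interferon-stimulated response element, the site that interferon-activated factors bind, was looked up in the promoters of the shared genes, as its core of 2 copies of GAAA separated by any 2 bases, on either strand. Windows of 300 bases, from 250 before to 50 after the transcript start, came from RefSeq (GRCm38.p6), which held one or more for 11708 of the 14732 tested genes with a symbol. The core was present in any window of 57 of 529 shared rises (10.8%), of 37 of 100 shared rises of 2-fold or more (37%), of 23 of 664 shared falls (3.46%), and of 3 of 41 shared falls of 2-fold or more (7.32%). Over all tested genes with a window the share was 3.63%, and over all 32851 windows 3.44%. It was found in 17 of 35 effectors and 9 of 10 GTPases. The promoters of Isg15, Ifit1 and Ifih1 are printed because they belong to an effector that overlapped, an effector of the largest rises and a sensor that did not overlap between the groups, and the matches are in capitals:

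Isg15 promoter (chr4:156200769-156201068, minus strand): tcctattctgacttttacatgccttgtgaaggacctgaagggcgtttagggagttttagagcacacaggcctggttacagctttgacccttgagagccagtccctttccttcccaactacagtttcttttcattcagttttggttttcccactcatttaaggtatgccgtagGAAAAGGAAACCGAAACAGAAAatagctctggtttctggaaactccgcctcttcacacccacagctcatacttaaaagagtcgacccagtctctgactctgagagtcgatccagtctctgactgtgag

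Ifit1 promoter (chr19:34640639-34640938, plus strand): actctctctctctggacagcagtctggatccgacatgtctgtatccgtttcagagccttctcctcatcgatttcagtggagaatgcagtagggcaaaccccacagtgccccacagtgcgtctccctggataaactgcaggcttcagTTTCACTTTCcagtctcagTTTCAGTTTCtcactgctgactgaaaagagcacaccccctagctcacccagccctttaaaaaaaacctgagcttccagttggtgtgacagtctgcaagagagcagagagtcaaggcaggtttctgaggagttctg

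Ifih1 promoter (chr2:62646206-62646505, minus strand): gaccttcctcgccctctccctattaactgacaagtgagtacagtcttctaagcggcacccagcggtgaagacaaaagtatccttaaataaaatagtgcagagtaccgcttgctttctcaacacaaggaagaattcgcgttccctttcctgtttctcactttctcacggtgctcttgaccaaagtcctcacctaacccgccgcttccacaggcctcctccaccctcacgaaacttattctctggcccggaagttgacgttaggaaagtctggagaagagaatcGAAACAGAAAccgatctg

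The Isg15 window held 3 overlapping matches and the Ifit1 window 2, all before the start, and the Ifih1 window held 1 after it. The windows of Ifi44, Oasl2, Irf7 and Ifnb1 held none. A match is a description of letters, not a measured site.

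The largest shared fall among named and unnamed transcripts alike was that of 2310065F04Rik (linc-Myh), a long non-coding RNA that lies between the myosin heavy chain genes Myh3 and Myh2 on chromosome 11 in RefSeq. It is named here after its values were seen. Its levels were 1.83, 3.11 and 2.54 on the GFP arrays of replicates 1, 2 and 3, −3.27, −3.81 and −3.29 with WT, −4.09, −3.87 and −3.07 with D1709N and −3.88, −4.08 and −3.54 with G1809R. The GFP arrays and the construct arrays were separated by more than 4 log2 units, and all 12 were above background. The log2 change was −6.15 ± 0.26 SE (limma adjusted p = 9.72e-05), −5.95 with WT, −6.17 with D1709N and −6.32 with G1809R, with no difference passing among the constructs (F test adjusted p = 0.687). It was called in all 25 alternatives.

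Tet2, the dioxygenase that oxidises 5-methylcytosine, had levels of 1.64, 1.42 and 1.17 on the GFP arrays of replicates 1, 2 and 3, 0.52, 0.14 and −0.01 with WT, 0, −0.07 and −0.0011 with D1709N and 0.43, 0.37 and 0.19 with G1809R. All 9 construct arrays lay below all 3 GFP arrays. Its log2 change was −1.24 ± 0.09 SE (limma adjusted p = 0.000817), and the constructs did not pass the test for a difference (F test adjusted p = 0.126). Tet3, its paralogue, was at 0.23 ± 0.07 SE and did not pass (limma adjusted p = 0.0954), and Tet2 was the only one of 19 genes of DNA methylation and demethylation called. It belongs to both the miR-29 and the miR-101 target list.

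Celf1, an RNA-binding protein that regulates splicing and decay, had levels of 3.92, 3.89 and 3.74 on the GFP arrays of replicates 1, 2 and 3, 2.91, 2.90 and 2.75 with WT, 2.96, 2.90 and 2.96 with D1709N and 2.96, 2.86 and 2.93 with G1809R. The 9 construct arrays lay between 2.75 and 2.96, below the lowest GFP array. The fall of 0.95 on the log2 scale (SE 0.06, limma adjusted p = 0.000598) was nearly the same in each construct: −0.996 with WT, −0.91 with D1709N and −0.94 with G1809R, with an F test adjusted p of 0.704. Phlpp2, a protein phosphatase, had levels of 2.61, 2.62 and 2.77 on the GFP arrays of replicates 1, 2 and 3, 1.35, 1.61 and 1.80 with WT, 1.40, 1.49 and 1.59 with D1709N and 1.70, 1.69 and 1.92 with G1809R, again with no overlap. Its log2 change was −1.05 ± 0.07 SE (limma adjusted p = 0.000598; F test adjusted p = 0.113).

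**Figure D2:**
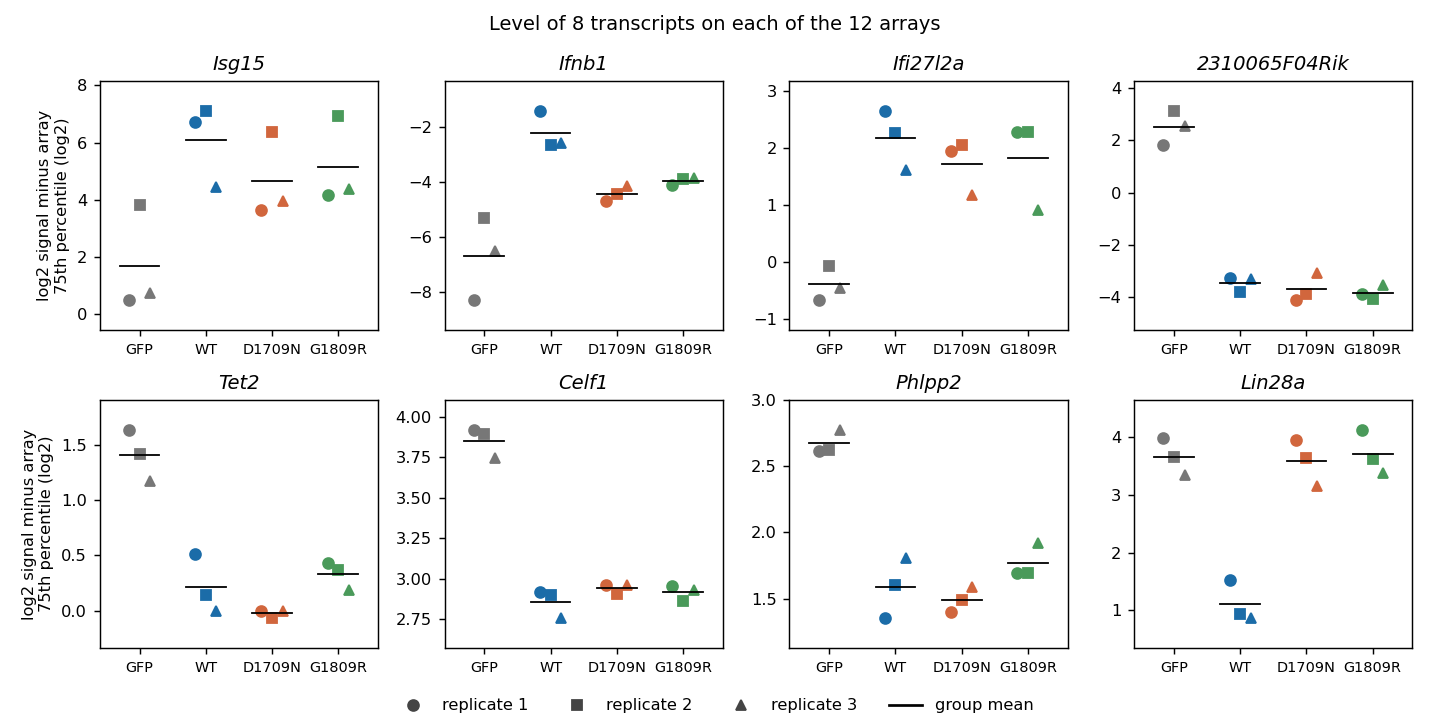
Level of 8 transcripts (vertical axis, log2 signal minus the array's 75th percentile, with a different scale in each panel) on each of the 12 arrays; symbols mark replicate numbers and bars mark group means. For Tet2, Celf1, Phlpp2, 2310065F04Rik, Ifnb1 and Ifi27l2a the construct arrays did not overlap the GFP arrays, for Isg15 they did, and Lin28a was lower on the WT arrays (0.87 to 1.53) than on all others.

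Other shared falls came from genes of varied function. Ets1, a transcription factor, fell by 0.81 and Six4, a homeobox factor, by 0.97 on the log2 scale. Pdgfra, a receptor tyrosine kinase of mesenchymal cells, fell by 0.65 and Vcam1, an adhesion molecule, by 1.12. None of these 4 overlapped between the construct and GFP arrays. Tnc, a matrix glycoprotein, changed by −1.48 ± 0.13 SE (limma adjusted p = 0.00152). Htr2c, a serotonin receptor, changed by −2.25 ± 0.25 SE (limma adjusted p = 0.00283), and it was above background on 3 of 3 GFP and 4 of 9 construct arrays. Cyp1b1, a cytochrome P450 and a known miR-27 target, was above background on 3 of 3 GFP and 2 of 9 construct arrays, with a change of −1.74 ± 0.17 SE (limma adjusted p = 0.0018). For both genes the size is limited by the background on the construct arrays. Cyp1b1 passed the filter on dim probes only through GFP and so had to be high there. Its p-value supports no more than a description.

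The targets of 3p and of 5p miRNAs were described from 13 lists of textbook targets, 7 for 3p and 6 for 5p families. Like the other lists, they were chosen with earlier results of these data known, so their counts only describe the members. The mature sequences are printed because the seed, bases 2 to 8 in capitals, defines a family, and the arm of the hairpin it comes from divides the lists. They are from RefSeq (GRCm38.p6). The families released from the 3p arm included

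miR-101a-3p: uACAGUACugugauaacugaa

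miR-29a-3p: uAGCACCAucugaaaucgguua

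miR-29b-3p: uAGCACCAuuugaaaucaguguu

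miR-221-3p: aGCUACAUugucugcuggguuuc

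miR-222-3p: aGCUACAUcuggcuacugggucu

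miR-25-3p: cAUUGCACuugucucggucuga

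miR-92a-3p: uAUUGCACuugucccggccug

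miR-19b-3p: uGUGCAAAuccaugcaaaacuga

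and those from the 5p arm included

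let-7a-5p: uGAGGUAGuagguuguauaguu

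miR-98-5p: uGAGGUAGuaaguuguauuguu

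miR-21a-5p: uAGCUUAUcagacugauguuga

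miR-30a-5p: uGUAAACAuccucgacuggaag

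miR-16-5p: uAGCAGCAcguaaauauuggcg

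The pairs miR-29a and miR-29b, miR-221 and miR-222, miR-25 and miR-92a, and let-7a and miR-98 have the same seed. The arrays measured mRNA and not these miRNAs.

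Among 202 tested genes of the 3p lists, 44 were lower with the constructs pooled and 4 higher, against 4.97% and 4.92% of all genes, and 36 falls were shared. Among 158 of the 5p lists 33 were lower, 3 higher and 24 falls shared. Some genes belong to both. The lists are of gene symbols, while all genes tested include 9452 transcripts without one. Of the 14732 tested genes with a symbol, 681 were shared rises and 835 shared falls. The median change of the 3p members was −0.19 with WT, −0.15 with D1709N and −0.16 with G1809R, and that of the 5p members −0.26, −0.04 and −0.05. All genes had medians of 0.04, 0.03 and 0.05. With the WT arrays left out and the mutants alone against GFP, 36 of the 3p members were lower and 4 higher (median −0.16), and 19 of the 5p members were lower and 8 higher (median −0.03). The pooled counts of falls dropped without any one GFP array, to 18, 22 and 15 for 3p and 16, 17 and 15 for 5p without replicates 1, 2 and 3. With the slide as the block they were 16 for 3p and 17 for 5p, and without a block 3 and 4.

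miR-101 acts on chromatin regulators among others. Of its 31 tested targets, 14 fell, 0 rose (1 rose at an unadjusted limma p under 0.05) and 12 falls were shared. Their median of −0.27 was −0.25 with WT, −0.28 with D1709N and −0.25 with G1809R, and −0.29 on slide 1 and −0.26 on slide 2. The count of falls was 4 without GFP replicate 1, 8 without GFP replicate 2 and 4 without GFP replicate 3. Besides Tet2 they included Lmnb1, a nuclear lamin (log2 change −0.95 ± 0.13 SE, adjusted p = 0.00449, limma), Mycn, a MYC family factor (−0.69), and Atxn1, a transcriptional repressor (−0.65). The call for Atxn1 was lost with the probes of the gene averaged. Lmnb1 had levels of 2.30, 2.74 and 2.75 on the GFP arrays of replicates 1, 2 and 3, 1.51, 1.13 and 1.41 with WT, 1.38, 1.69 and 1.90 with D1709N and 1.74, 1.82 and 2.25 with G1809R, with no overlap.

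The other 3p lists had medians of −0.24 (miR-19, 31 genes), −0.18 (miR-29, 45 genes), −0.18 (miR-221 and miR-222, 23 genes), −0.17 (miR-25 and miR-92, 31 genes), −0.16 (miR-27, 30 genes) and −0.16 (miR-200, 33 genes). In each of these 7 lists the median lay below 0 with all 3 constructs, as it did in most of the 5p lists. The list of miR-221 and miR-222 held Bmf, a pro-apoptotic BH3-only protein (log2 change −0.92 ± 0.11 SE, adjusted p = 0.00372, limma), and Trps1, a GATA-type repressor, whose fall was larger with the mutants (−0.44 with WT, −1.08 with D1709N and −1.03 with G1809R; F test adjusted p = 0.041). The WT-against-mutants difference of Trps1 was lost without WT replicate 2 or WT replicate 3. Col7a1, the collagen of anchoring fibrils in the miR-29 list, changed by −0.88 ± 0.10 SE (limma adjusted p = 0.00319).

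let-7 represses growth and stem-cell genes. Of its 50 tested targets, 16 fell and 2 rose in the pooled fit, 11 of the falls were shared, and 23 were lower with WT than with the mean of the mutants, where 9.53% of all genes were. Their median was −0.39 with WT, −0.08 with D1709N and −0.06 with G1809R, and −0.31 on slide 1 and −0.18 on slide 2 with the constructs pooled. The 16 falls became 6, 6 and 7 without GFP replicates 1, 2 and 3. Lin28a, the RNA-binding protein that blocks let-7 maturation, had levels of 3.99, 3.65 and 3.35 on the GFP arrays of replicates 1, 2 and 3, 1.53, 0.93 and 0.87 with WT, 3.95, 3.64 and 3.14 with D1709N and 4.12, 3.62 and 3.38 with G1809R. WT arrays lay below all others, and the mutant arrays, at 3.14 to 4.12, spanned the GFP range of 3.35 to 3.99 (WT minus the mean of the mutants −2.53 ± 0.08 SE, adjusted p = 7.85e-06, limma). Its pooled change of −0.86 was called, yet only 7 of 9 pairs were lower, so it was not shared. Nr6a1, an orphan nuclear receptor, was lower in 9 of 9 pairs and shared by that count, although its change was −2.61 with WT, −0.37 with D1709N and −0.23 with G1809R. Its pooled call was lost with WT left out.

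Lin28b, the paralogue of Lin28a, was a shared fall and was lower still with WT. Its levels were 3.53, 3.93 and 3.46 on the GFP arrays of replicates 1, 2 and 3, 0.92, 0.92 and 1.01 with WT, 2.45, 3.30 and 2.89 with D1709N and 2.55, 3.20 and 2.50 with G1809R. No construct array overlapped the GFP arrays, and the WT arrays were the lowest. Its change was −2.70 with WT, −0.76 with D1709N and −0.89 with G1809R (WT minus the mean of the mutants −1.87 ± 0.14 SE, adjusted p = 0.0002, limma). Hic2, a zinc-finger repressor in the let-7 list, was also lowest with WT: −1.62 with WT, −0.96 with D1709N and −0.60 with G1809R (WT minus the mean of the mutants −0.84 ± 0.06 SE, adjusted p = 0.000184, limma). In the miR-21 list, Reck, an inhibitor of metalloproteinases, changed by −1.47 with WT, −0.55 with D1709N and −0.64 with G1809R (WT minus the mean of the mutants −0.87 ± 0.13 SE, adjusted p = 0.00277, limma), and Yod1, a deubiquitinase, by −1.14 with WT, −0.60 with D1709N and −0.55 with G1809R. All 4 were called lower in the pooled fit in every leave-one-out alternative.

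**Figure D3:**
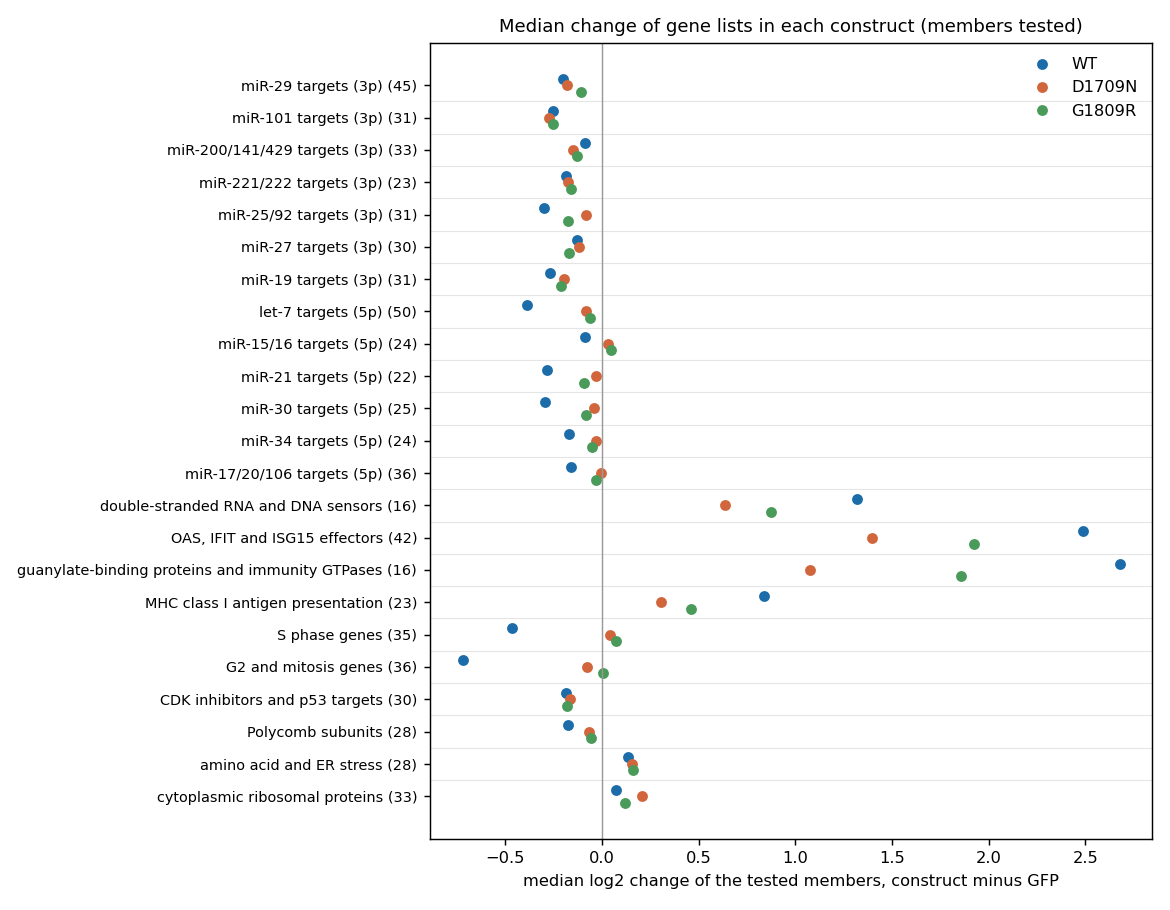
Median log2 change against GFP (horizontal axis) of the tested members of 23 gene lists, one point for each construct; the number of members tested is in brackets. The 3p target lists lay below 0 with all 3 constructs, and so did most 5p lists. Each 5p list was lowest with WT, and so were several 3p lists, those of miR-19 and miR-29 among them. Neither trait therefore separates the arms. The interferon lists were above 0 with all 3, and the S phase, G2 and mitosis lists were lowest with WT (−0.47 and −0.72).

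The 3 constructs differed from one another in 2933 genes (12.1% of those tested; moderated F test, adjusted p below 0.05), and 378 of these were among the 1974 shared genes. Without WT replicate 1 the count was 1612, without WT replicate 2 it was 1487 and without D1709N replicate 2 it was 1894. WT differed from the mean of the mutants in 4713 genes (19.5%), 2305 lower and 2408 higher, of which 593 were shared. Without WT replicate 1 that count was 2924 and without WT replicate 2 it was 2986. D1709N differed from the mean of WT and G1809R in 251 genes (1.04%), and G1809R from the mean of WT and D1709N in 175 (0.724%). Both contrasts have WT in the mean they are set against, so genes in which only WT differs can be counted in them. The D1709N count was 2 to 16 without any one D1709N array, 34 to 53 without any one G1809R array, and 86 and 442 when WT replicates 2 and 3 were left out. It was 164 and 138 when GFP replicates 1 and 3 were. The G1809R count was 3 without any one G1809R array, 37 to 48 without any one D1709N array, and 116 and 70 when WT replicates 1 and 2 were left out. It was 64 and 83 when GFP replicates 1 and 3 were. A total of 1373 shared genes passed none of these tests of a construct difference.

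Cell cycle genes were lower mainly with WT by this test. Of 36 G2 and mitosis genes, 34 were lower with WT than with the mutants, and of 35 S phase genes 27 were, against 9.53% of all genes. Shared falls among them numbered 3 in each list. Ccna2, the cyclin of S phase and mitotic entry, had levels of 3.76, 3.47 and 3.62 on the GFP arrays of replicates 1, 2 and 3, 2.54, 2.43 and 2.41 with WT, 3.69, 3.58 and 3.53 with D1709N and 3.87, 3.72 and 3.81 with G1809R. The WT arrays lay below all others, and 5 of 9 pairs were lower (WT minus the mean of the mutants −1.24 ± 0.06 SE, adjusted p = 4.28e-05, limma). The pooled change of Ccna2 (−0.33) was lost without GFP replicate 1 or GFP replicate 3 and turned to 0.08 with the WT arrays left out. The pooled changes of Cdc25a, a phosphatase that activates cyclin-dependent kinases, and Ccnf, a mitotic F-box protein, turned sign in the same fit, to 0.03 and 0.10.

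**Figure D4:**
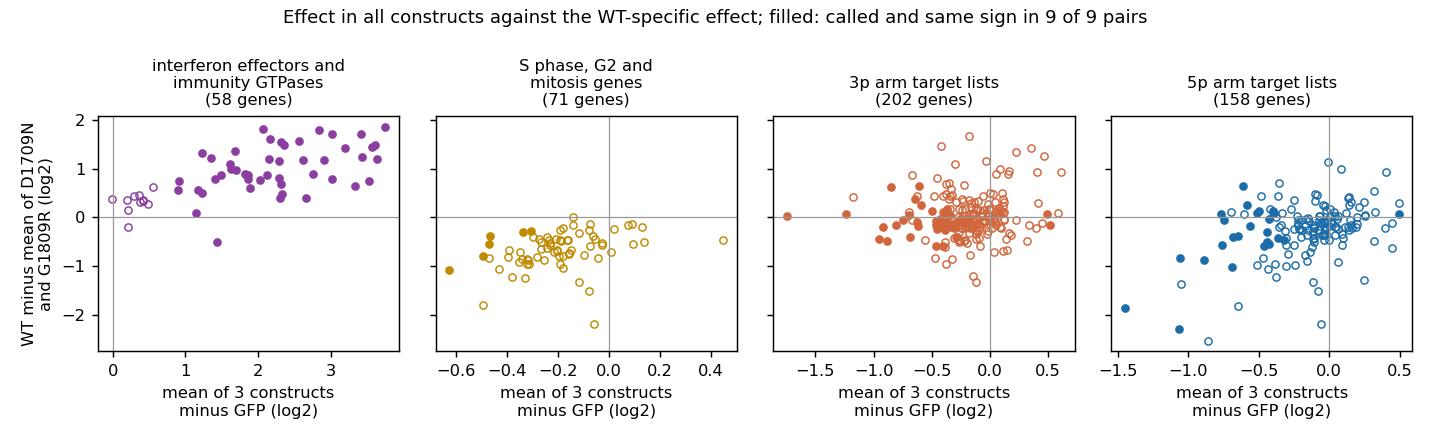
Log2 change of the 3 constructs pooled against GFP (horizontal axis, with a different range in each panel) against WT minus the mean of the mutants (vertical axis) for 4 sets of list members, one point per gene; filled points were called with the pooled sign in 9 of 9 pairs. Interferon genes lay to the right, cell cycle genes mostly below 0 on the vertical axis, 3p targets left of 0 around a vertical value of 0 (median −0.05) and 5p targets lower (median −0.19).

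The opposite order, a larger fall with the mutants than with WT, was seen in Fut4, a fucosyltransferase that makes the Lewis x antigen. Its change was −0.16 with WT, −1.71 with D1709N and −1.23 with G1809R (WT minus the mean of the mutants 1.31 ± 0.09 SE, adjusted p = 0.000113, limma), and 8 of 9 pairs were lower, which left it just outside the shared set. The pooled call of Fut4 was lost with the probes of the gene averaged and in the 2-group fit. Its WT-against-mutants call held in all 21 alternatives. Ly6d, a surface antigen, changed by −3.23 with WT, −0.83 with D1709N and −0.75 with G1809R (WT minus the mean of the mutants −2.44 ± 0.15 SE, adjusted p = 8.47e-05, limma). Ms4a2, a subunit of the IgE receptor, changed by −3.28 with WT, −0.76 with D1709N and −0.78 with G1809R, and Aqp8, a water channel, by −2.35 with WT, −1.11 with D1709N and −1.13 with G1809R. Stmn4, a microtubule regulator, rose by 2.99 with WT and was at −0.03 and −0.16 with the mutants. Its pooled call (0.93) turned to −0.10 without WT.

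Other lists gave smaller shared effects. In the pooled fit 4.92% of all genes rose and 4.97% fell. Of 30 CDK inhibitors and p53 targets, 9 fell and 9 were shared, with medians of −0.19 with WT, −0.16 with D1709N and −0.18 with G1809R, but only 2, 1 and 1 fell without GFP replicates 1, 2 and 3. Cdkn1a, the p21 inhibitor, was at 0.14 ± 0.08 SE and did not pass (limma adjusted p = 0.296). Of 28 amino acid and ER stress genes 7 rose and 1 fell, and 1 rose without any one of the GFP arrays. Trib3, a pseudokinase induced by ATF4, kept its rise in each of these fits (log2 change 1.03 ± 0.15 SE, adjusted p = 0.00584, limma). Id1 and Id3, direct targets of BMP and SMAD signalling, rose by 0.82 and 0.86, with 0.85 with WT, 0.86 with D1709N and 0.75 with G1809R for Id1 and a larger rise with WT for Id3 (WT minus the mean of the mutants 0.69 ± 0.11 SE, adjusted p = 0.00455, limma). Of 20 chemokines and inflammatory cytokines, 6 fell and 2 rose, with 3 falls without each GFP array. Of these 20, 2 passed the filter on dim probes only through construct arrays and 2 only through GFP. Such members had to be high on that side, so these counts only describe the members tested. Cxcl12, which attracts lymphocytes and stem cells, changed by −1.11, in contrast to Ccl5 above. Of 33 cytoplasmic ribosomal protein genes none was called by limma, and 5 were higher at an unadjusted p under 0.05.

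The genes with the smallest pooled p among shared rises were not all interferon genes. Gtsf1l, related to a factor of the piRNA pathway, had levels of −2.52, −3.20 and −2.88 on the GFP arrays of replicates 1, 2 and 3, −0.98, −1.11 and −0.97 with WT, −1.74, −2.32 and −2.11 with D1709N and −1.82, −2.14 and −1.80 with G1809R. The groups did not overlap, and WT was highest (WT minus the mean of the mutants 0.97 ± 0.10 SE, adjusted p = 0.000597, limma). Its log2 change was 1.20 ± 0.09 SE (limma adjusted p = 0.00115). Cdx1, an intestinal homeobox factor, rose by 1.11 ± 0.10 SE (limma adjusted p = 0.00171) by like amounts in each construct: 1.04 with WT, 1.05 with D1709N and 1.25 with G1809R. Pramel39, of a large multigene family, rose by 1.69 ± 0.14 SE (limma adjusted p = 0.00152), again without overlap. The labels do not say whether the 3 replicates were separate cultures, so the p-values rest on sample-to-sample spread that could be technical alone.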

How the data were processed

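Labelled RNA of 12 samples was read on 12 Agilent arrays, one per sample, 3 per group. The deposited intensity of each spot is the background-subtracted, detrended processed signal of Agilent Feature Extraction 11.0.1.1, as stated per the file headers; arrays were not scaled to each other. The authors' deposited table of values holds log2 signals with unstated scaling, and array medians of 9.40 to 9.42. It served as an alternative.

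From these, log2 signals were centred by subtracting the 75th percentile over the 59305 non-control spots of the array. The 3671 control spots were left out. Spots flagged as outliers were dropped, which left out 287 of 55681 probes, and the spots of a probe averaged. No probe was saturated. Probes well above background on all arrays of at least 1 group were kept (33024), and the one with the highest mean stood for its gene, named through RefSeq accessions (14732 genes with a symbol, 9452 transcripts without). Signal near background and the number of arrays limit the precision.

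limma 3.58.1 (R 4.3.3) fitted the 4 groups and the replicate number to all 12 arrays (lmFit, eBayes), two-sided. Contrasts were the mean of the 3 constructs minus GFP, the F test among constructs, and each construct minus the mean of the other 2, each adjusted by Benjamini and Hochberg over 24184 genes and called under 0.05. Deviations from the group means correlated by 0.60 to 0.85 in all 18 same-number pairs. A difference between the slides would give such correlations too, so they cannot tell paired samples apart from the slide. Slide and scan coincide (replicate 1; replicates 2 and 3). The fit was also run on data simulated from the same model, with independent noise and planted differences. That run cannot test the choice of block or the slide. Named genes were the largest and the most significant shared changes, up to 4 called members per list, the extremes of each construct contrast and a set of genes given by name; the text prints a selection. The members and the 38 gene lists were chosen with earlier results of these data known. Alternatives were the block, slide, scaling, normexp on the spot median signal (offset 50, in place of the mean signal, not used here), the value table, the filter, probe averaging, leaving out each array or construct, and a 2-group fit. The header gives the build mm9, from which no coordinate is printed.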

Additional observations from a re-analysis of the deposited data

Results flagged for a closer look

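Celf1 on WT replicate 3, at a level of 2.75, lay apart from the other 8 construct arrays (2.86 to 2.96), with a gap of 0.52 of the range of the 9 arrays. It was the only one of 149 genes looked at this way, where chance alone singles out about 1 in 20, and it does not touch the separation from GFP. The size of the effect differed among the constructs for 378 of the shared genes by the F test, Lin28b, Hic2, Reck, Ly6d and Aqp8 among them, so that a common sign in 9 of 9 pairs does not mean a common size.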

How the results depend on the processing

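Counts are given in the order pooled calls, shared, F among constructs, WT-specific, D1709N-specific, G1809R-specific. The construct-specific counts set each construct against the mean of the others, so they can include genes in which only another construct differs. Without the replicate block they were 68, 66, 333, 872, 1 and 2; with the slide as block 652, 604, 1070, 2211, 11 and 18; on slide 2 alone 570, 555, 290, 1859, 0 and 0 (3651 and 2618 for the last pair at an unadjusted limma p under 0.05); without the filter on dim probes 905, 843, 1266, 2755, 0 (4262 unadjusted) and 16. A 2-group fit gave 866 pooled calls and 860 shared. Leaving out D1709N gave 1503 pooled calls and leaving out G1809R 1577. D1709N-specific counts were 161 with quantile normalization and 78 with median scaling, and G1809R-specific counts 112 with median scaling and 334 with normexp. Leaving out 1 array at a time gave 649 to 2312 pooled calls, 625 to 1963 shared, 1487 to 2542 by F, 2924 to 4292 WT-specific, 2 to 442 D1709N-specific and 3 to 135 G1809R-specific. The 4 genes whose pooled change turned with the WT arrays left out were Cdc25a (0.028), Ccnf (0.10), Ccna2 (0.083) and Stmn4 (−0.10). Of 139 called genes named or listed, 18 kept their call without the block, 133 with quantile normalization, 127 with median scaling and 136 each with normexp and the value table. The cause of these changes was not tested.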

Other observations

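Groups of paralogous genes, most of them outside the lists above and all chosen after their values were seen, also gave calls in the pooled fit. Zscan4a, Zscan4c and Zscan4f, zinc-finger genes known from the 2-cell embryo state, rose by 1.07, 1.17 and 1.27 on the log2 scale, and all 3 were shared. Tcstv1, of the same state, rose by 1.21, and Tcstv3, at 1.23, did not pass (limma adjusted p = 0.0687). Over all genes tested, 4.92% rose in that fit. Of 9 tested Pramel genes 6 rose, by 0.39 to 1.71. Zscan4f did not pass the test for a difference among the constructs (F test adjusted p = 0.16).

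Glutathione S-transferases, which conjugate toxic compounds, rose as well: 4 of 7 tested Gstm genes, all 4 shared, and both tested Gsta genes, neither of them shared. Gsta2 rose most with WT (2.54, against 0.74 with D1709N and 0.46 with G1809R). Within the interferon response, all 6 tested genes of Trim12, Trim30 and Trim34 rose, by 1.50 to 3.57, and 5 of 6 tested Ifi200 family genes did, with Ifi208 at −0.19 the exception. Apol9a and Apol9b rose by 1.87 and 1.97, and Apol7a and Apol7b did not pass. Near-identical copies in these families can share signal on 1 probe, so their values are not independent of each other.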
